A study of Mus musculus with 10 samples.

Results

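Complement is a cascade of plasma and cell-surface proteins that marks microbes and damaged cells, recruits phagocytes and can perforate membranes. The 9 genes described here are its components and regulators C1ra, C2, C3, C4b, Cfb, Cfd, Cd55, C3ar1 and C5ar1, taken by gene symbol from a table of 24525 genes, and all 9 were in it. The libraries are polyA-selected RNA-seq of 5 colorectal tumours and 5 samples of adjacent colon, all from male C57BL/6 mice. All donors were treated: at an age of 7 weeks they received azoxymethane (AOM, a mutagen) at 12.5 mg/kg, then 3 cycles of 3 weeks, each with 2% dextran sulfate sodium (DSS, an agent that wounds the gut lining) for 5 days followed by 16 days on water. Tumours and colon were collected 10 weeks after AOM. Adjacent samples are therefore treated colon; untreated mice were not analysed here. The source label gives the same mouse number for all libraries, so the labels do not settle which share an animal, and p-values reflect only how far these samples vary, part of which may be technical.

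The classical route starts when the C1 complex, made of C1q and the proteases C1r and C1s, cuts C4 and C2. Their fragments form an enzyme that cuts C3. The alternative route forms a second C3-cutting enzyme from C3 itself and factor B (Cfb), which factor D (Cfd) cuts. CD55 speeds the decay of both enzymes on host cells. The small fragments C3a and C5a act through the receptors C3ar1 and C5ar1, which are known from myeloid cells. The liver makes most plasma complement, and epithelial cells, fibroblasts and macrophages make it locally in the gut.

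Values are FPKM, fragments scaled to transcript length and to library size, as deposited. Libraries summed to 462009 to 484712 FPKM. Depth is not stated, and steps between low values gave a rough 20700000 to 26200000 fragments per library. Fold changes and tests are from limma on log2(FPKM + 1), tumour minus adjacent, over the 13016 genes whose mean reached 1 FPKM. The words rose and fell are kept for a Benjamini-Hochberg adjusted p under 0.05. Of those genes 76.5% passed, 57.2% upward and 19.3% downward. Over all tested genes the median change was 0.35, a shift against which each change is to be read. As checks of the labels, colonocyte and goblet cell markers such as Car4 and Clca1 fell (6 of 6) and 5 of 6 general epithelial markers fell. The other epithelial marker, Krt18, rose by 0.36 on the log2 scale (limma, adjusted p = 0.00711). The fibroblast markers rose (8 of 8), as did 7 of 8 macrophage and monocyte markers that passed the filter on low values, while Mertk fell. In bulk tissue, fewer cells of a type and less RNA per cell cannot be told apart.

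In tumours, C1ra and C4b of the classical route, C3 and both anaphylatoxin receptors were 2.65-fold to 4.63-fold higher in mean FPKM, C2 was 2.03-fold higher without passing the test, whereas factor B and CD55 were lower and factor D was at or near 0 in every library. Of the 9 members 8 passed the filter, of which 5 rose (C1ra, C3, C4b, C3ar1 and C5ar1), 2 fell (Cfb and Cd55) and C2 did not pass the test. These counts lie near those of all tested genes, 57.2% and 19.3%, so the number called is not particular to complement. The median log2 change of the 8 was 1.28, against 0.35 over all tested genes. In 3 of the 8 (C1ra, C3ar1 and C5ar1) every tumour lay above every adjacent sample, as did 46.5% of all tested genes. With each library's median subtracted the same 5 members rose and the same 2 fell, against 34.5% and 33.3% of all tested genes.

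**Figure D1:**
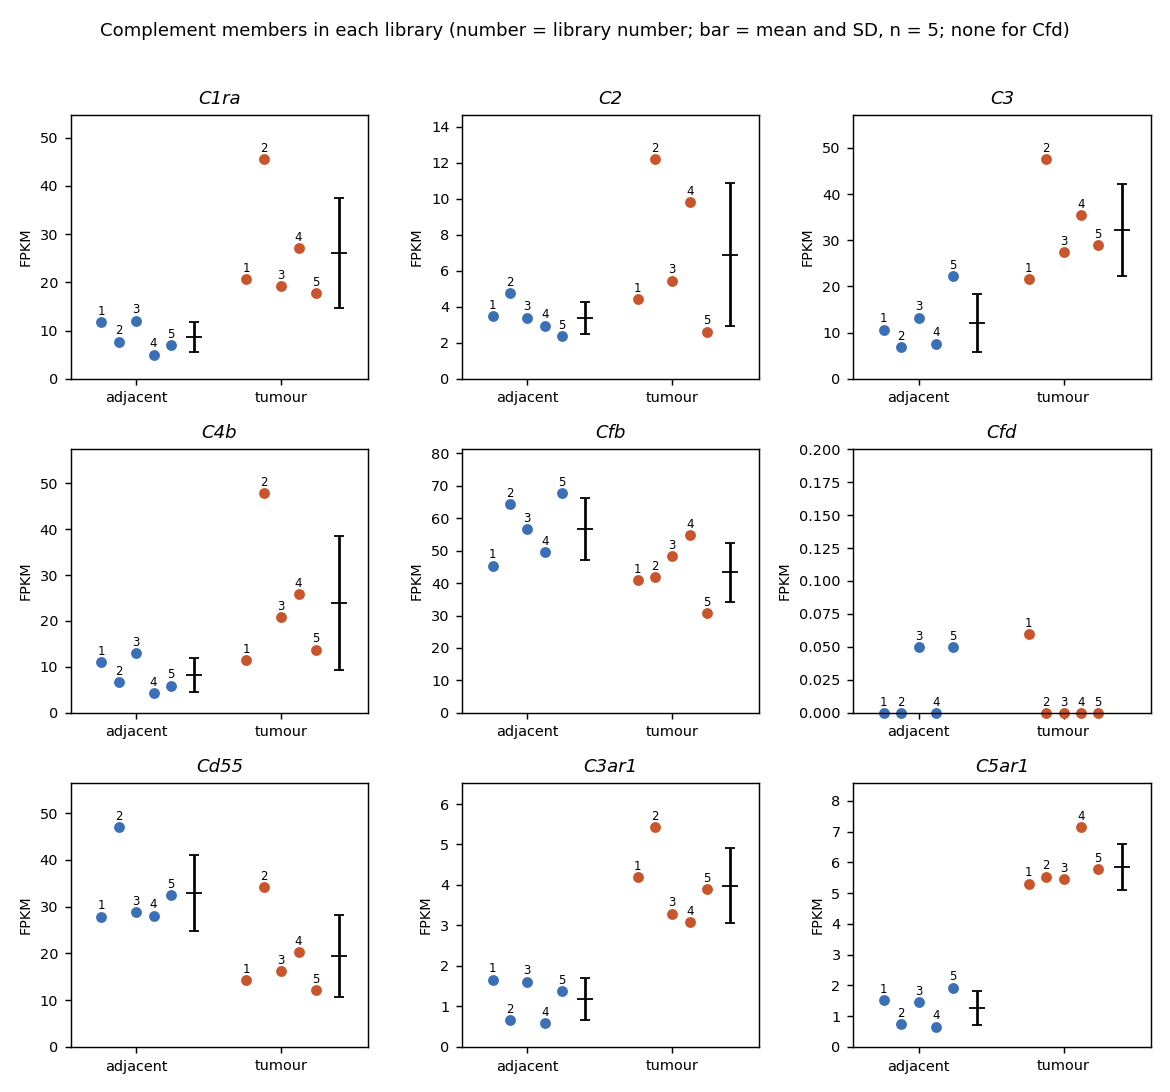
FPKM (y axis, linear, from 0) of the 9 members in each library; points are libraries with their number, blue adjacent and orange tumour, and bars give mean and SD (n = 5, none drawn for Cfd). C1ra, C3ar1 and C5ar1 show no overlap between groups, Cfb and Cd55 lie lower in tumours with overlap, and tumour 2 is the highest tumour for C1ra, C2, C3, C4b, Cd55 and C3ar1.

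Among the classical components, C1ra encodes the protease C1r, which activates C1s within the C1 complex (chromosome 6, 124512621 to 124523440, GRCm38, plus strand). It was at 11.8, 7.72, 12.1, 5.02 and 6.99 FPKM in adjacent samples 1 to 5 and at 20.6, 45.6, 19.2, 27.1 and 17.8 FPKM in tumours 1 to 5. Every tumour was above every adjacent sample, and tumour 2 stood highest. Tumours averaged 26.1 ± 11.5 FPKM against 8.72 ± 3.10 in adjacent samples (mean ± SD, n = 5 each), and the gene rose (log2 change 1.45 ± 0.29, SE; limma, adjusted p = 0.000937). Its partner gene C1s1, not a member, rose from 15.0 ± 5.94 to 54.4 ± 23.4 FPKM. Within each library C1ra lay below C1s1 by 0.70 ± 0.13 in adjacent samples and by 1.03 ± 0.10 in tumours on the log2(FPKM + 1) scale, and this gap was wider in tumours (difference -0.33, exact permutation test, two-sided, adjusted p = 0.0175 over 11 such differences, where the design allows no raw p under 0.00794). The near-identical copy C1rb did not exceed 0.29 FPKM in any library. How reads were split between the copies is not stated.

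C4b encodes C4, the precursor of the C4b fragment that anchors the classical enzyme (chromosome 17, 34728139 to 34743902, minus strand). It was at 11.1, 6.70, 13.1, 4.38 and 5.92 FPKM in adjacent samples 1 to 5 and at 11.5, 47.9, 20.8, 25.8 and 13.8 FPKM in the tumours. Tumour 1 lay within the adjacent range, and tumour 2 was far above the other 4. Tumours averaged 23.9 ± 14.5 FPKM against 8.23 ± 3.68 in adjacent samples (mean ± SD, n = 5 each), and the gene rose (log2 change 1.35 ± 0.38, SE; limma, adjusted p = 0.00818), and 1.07 without tumour 2 (adjusted p = 0.0131). Its copy C4a stayed between 0.09 and 0.40 FPKM.

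C2, the protease subunit that joins C4b, lies on chromosome 17 at 34862602 to 34882100, minus strand. Adjacent samples 1 to 5 were at 3.48, 4.76, 3.40, 2.96 and 2.38 FPKM, and tumours 1 to 5 at 4.43, 12.2, 5.46, 9.81 and 2.62 FPKM. Tumours 2 and 4 were above every adjacent sample by a wide margin, tumour 3 by a narrow one, and tumours 1 and 5 lay within the adjacent range. The means were 3.40 ± 0.88 and 6.91 ± 3.97 FPKM (SD, n = 5 per group). The log2 difference was 0.72 (95% interval 0.0014 to 1.43) with a limma adjusted p of 0.0638, so C2 was not called. It passed without tumour 5 (0.96, adjusted p = 0.00886), and the difference was smaller without tumour 2 (0.49, adjusted p = 0.134). Median subtraction gave 0.38 (adjusted p = 0.336) and quantile normalization gave 0.27 (adjusted p = 0.516).

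C3, the protein on which all routes converge (chromosome 17, 57203967 to 57228136, minus strand), was at 10.65, 6.86, 13.2, 7.63 and 22.3 FPKM in adjacent samples 1 to 5. Tumours 1 to 5 were at 21.6, 47.6, 27.4, 35.5 and 29.0 FPKM. Adjacent sample 5, with 22.3 FPKM, was just above tumour 1 and was the only adjacent library to overlap the tumours. Tumours averaged 32.2 ± 9.92 FPKM against 12.1 ± 6.22 in adjacent samples (mean ± SD, n = 5 each), and the gene rose (log2 change 1.40 ± 0.30, SE; limma, adjusted p = 0.00158), and 1.64 without adjacent sample 5. The neutrophil marker list also averaged more there, 3.77 as log2(FPKM + 1), than in adjacent samples 1 to 4, where it ran from 1.76 to 2.28; the part of neutrophils in the C3 level was not tested.

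The windows of 250 bases before the annotated starts of C1ra and C3 are shown as RefSeq sequence (GRCm38.p6; C1ra at chr6:124512371-124512620, plus strand; C3 at chr17:57228137-57228386, minus strand), since both genes rose and the fixed list of complement-inducing factors holds C/EBP genes. The motifs searched on both strands were TTGCNNAA (C/EBP-type), TGANTCA (AP-1), AGGAAGT (ETS), GGGCGG (GC box) and TTCNNNGAA (STAT), and matches are in capitals. The C3 window holds a C/EBP-type match 45 to 38 bases before the start, a motif present in 9.56% of 32851 such windows, and the C1ra window holds none of the 5 motifs.
C1ra: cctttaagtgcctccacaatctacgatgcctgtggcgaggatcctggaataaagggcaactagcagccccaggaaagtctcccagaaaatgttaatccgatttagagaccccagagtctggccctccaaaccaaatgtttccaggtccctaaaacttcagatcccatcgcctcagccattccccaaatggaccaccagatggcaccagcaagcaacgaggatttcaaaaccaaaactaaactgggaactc
C3: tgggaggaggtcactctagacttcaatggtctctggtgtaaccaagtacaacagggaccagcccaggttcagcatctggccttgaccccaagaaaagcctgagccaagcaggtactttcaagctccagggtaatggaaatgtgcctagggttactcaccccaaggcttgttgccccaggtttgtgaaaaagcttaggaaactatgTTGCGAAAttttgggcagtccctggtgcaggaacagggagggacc

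The C/EBP genes Cebpb and Cebpd rose by 1.15 (SE 0.19) and 0.94 (SE 0.15) on the log2 scale (limma adjusted p = 0.000267 and 0.000191). In the whole list of 12 cytokines and factors known to act on complement genes, 10 passed the filter, 8 rose and 1 fell, against 57.2% and 19.3% of all tested genes. With medians subtracted 6 rose and 1 fell. Il1b, an inflammatory cytokine gene, averaged 6.79 ± 4.77 FPKM in adjacent samples and 44.3 ± 20.3 FPKM in tumours (n = 5 each), and Irf1, an interferon-induced factor, fell from 101 ± 22.4 to 62.8 ± 21.0 FPKM. Il6 and Ifng were below the filter. Il6, the gene of interleukin 6, was at 0.14 FPKM or less in adjacent samples and at 0.46 to 3.23 FPKM in tumours. Ifng, the gene of interferon gamma, did not exceed 0.48 FPKM. The matches and the factor levels were not tested against the member levels.

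In the alternative route, Cfb was the most abundant member in both groups (chromosome 17, 34856374 to 34862514, minus strand). Adjacent samples 1 to 5 were at 45.4, 64.3, 56.6, 49.5 and 67.8 FPKM and tumours 1 to 5 at 40.9, 41.9, 48.4, 54.8 and 30.7 FPKM. The ranges overlapped, and tumour 4 lay above adjacent samples 1 and 4. Tumours averaged 43.3 ± 9.01 FPKM against 56.7 ± 9.50 in adjacent samples (mean ± SD, n = 5 each), and the gene fell (log2 change -0.39 ± 0.16, SE; limma, adjusted p = 0.0417). This call was lost without adjacent sample 2, 3 or 5 or tumour 1, 2 or 5 (6 of 10 fits, adjusted p from 0.0649 to 0.0964), and with no filter on low values (0.0571). With medians subtracted the log2 change was -0.72 (adjusted p = 0.00278).

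Cfd, the protease that cuts factor B (chromosome 10, 79890853 to 79892655, plus strand), was listed at 0 in 7 libraries. It was at 0.05 FPKM in adjacent samples 3 and 5 and at 0.06 FPKM in tumour 1, where 1 fragment is worth about 0.041 to 0.052 FPKM, so these values stand for about 1 fragment each. It was below the filter and no comparison was detectable at this depth. Cfd is best known from adipocytes, and of the 6 adipocyte markers Adipoq, Plin1, Lep and Retn were at 0.16 FPKM or less in every library. Cidec was at 1.61 to 3.52 FPKM in adjacent samples and fell to 0.05 to 1.65 FPKM in tumours, and Cd36, which other cells also express, was at 0.82 to 2.32 FPKM and was not called. Cfp, the gene of properdin, which stabilises the alternative enzyme, rose to 15.8 ± 2.30 FPKM from 5.11 ± 1.87 (n = 5 each; log2 change 1.50 ± 0.20, SE; limma, adjusted p = 7.47e-05).

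C2, Cfb and C4b lie within 153962 bases of chromosome 17 in the class III region of the major histocompatibility complex, with 87 bases between Cfb and C2. Of their neighbours there, Stk19, Dxo and Skiv2l did not pass, with log2 differences of 0.16, 0.01 and 0.10, while Nelfe rose by 0.40 (SE 0.06). Cyp21a1 rose by 1.22 (SE 0.33), close to the 1.35 (SE 0.38) of C4b on the log2(FPKM + 1) scale. It was low, at 0.65 ± 0.34 FPKM in adjacent samples and 3.18 ± 1.90 FPKM in tumours, with overlap. In mean FPKM Cyp21a1 was 4.88-fold higher in tumours and C4b 2.91-fold. For both, tumour 2 was the highest and tumour 1 the lowest tumour. Cfb and C2, though side by side, differed in how they changed: within libraries Cfb lay above C2 by 3.72 ± 0.38 in adjacent samples and by 2.62 ± 0.59 in tumours on the log2(FPKM + 1) scale, a difference of -1.10 (exact permutation test, adjusted p = 0.0175), or -0.73 with quantile normalization (adjusted p = 0.0437). No tumour reached the adjacent range of this gap. For C4b against C2 the gap was 1.00 ± 0.57 and 1.64 ± 0.36, which did not pass (exact permutation test, adjusted p = 0.109). The gene model Gm20547 in GENCODE M21 spans both Cfb and C2 on their strand, and Zbtb12 overlaps C2 on the other strand. Whether counting used strand is not stated, so reads in these overlaps cannot be assigned.

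C3 and Cfb, the components of the alternative enzyme, moved in opposite directions. C3 lay below Cfb by 2.23 ± 0.58 in adjacent samples and by 0.44 ± 0.47 in tumours within libraries on the log2(FPKM + 1) scale, a difference of 1.79 (exact permutation test, adjusted p = 0.0175). Tumour 2 was the only library with more C3 than Cfb, at 47.6 and 41.9 FPKM. In the order of mean FPKM, adjacent samples ran Cfb, Cd55, C3, C1ra, C4b, C2, C5ar1, C3ar1 and Cfd. There, C3 exceeded C1ra in 3 of 5 libraries and C5ar1 exceeded C3ar1 in 3 of 5, so these neighbours did not differ beyond their spread, and C1ra exceeded C4b in 4 of 5. In tumours the order was Cfb, C3, C1ra, C4b, Cd55, C2, C5ar1, C3ar1 and Cfd. C1ra exceeded C4b in 3 of 5 tumours and C2 exceeded C5ar1 in 2 of 5, and C5ar1 exceeded C3ar1 in 5 of 5. Cfb held 45.5% of the summed member FPKM in adjacent samples and 26.8% in tumours, and Cd55 held 26.4% and 12.0%.

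Cd55, the decay-accelerating factor anchored on the cell surface, lies on chromosome 1 at 130429798 to 130465009, minus strand. Adjacent samples 1 to 5 were at 27.8, 47.0, 28.9, 28.1 and 32.5 FPKM and tumours 1 to 5 at 14.25, 34.1, 16.2, 20.3 and 12.1 FPKM. Tumour 2 lay within the adjacent range, and the other 4 tumours lay below it. Tumours averaged 19.4 ± 8.77 FPKM against 32.9 ± 8.13 in adjacent samples (mean ± SD, n = 5 each), and the gene fell (log2 change -0.79 ± 0.25, SE; limma, adjusted p = 0.0150). Relative to the mean of 6 epithelial markers in the same library, Cd55 lay at -4.61 ± 0.30 in adjacent samples and at -4.85 ± 0.37 in tumours, a difference of -0.24 that did not pass (exact permutation test, adjusted p = 0.340). With quantile normalization it was -0.63 and passed (adjusted p = 0.0437). The copy Cd55b stayed at 0.94 FPKM or less, and the antisense gene Gm16083 overlaps Cd55.

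The 250 bases before the RefSeq transcript start of Cd55 (chr1:130462745-130462994, minus strand), which lies inside the span given above, are shown since Cd55 fell. They hold 2 GC boxes, in capitals, on the opposite strand at 77 to 72 and at 7 to 2 bases before the start. A GC box was present in 32.7% of all such windows.
Cd55: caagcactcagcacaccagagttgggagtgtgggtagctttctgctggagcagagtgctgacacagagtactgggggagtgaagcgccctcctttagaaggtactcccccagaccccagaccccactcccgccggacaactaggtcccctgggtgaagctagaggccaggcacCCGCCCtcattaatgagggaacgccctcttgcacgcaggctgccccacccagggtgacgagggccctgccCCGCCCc

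The membrane regulator Cr1l (Crry), which in the mouse covers roles of CD46 and CD55, also fell, from 43.5 ± 2.44 to 33.2 ± 2.86 FPKM (n = 5 per group), with every tumour below every adjacent sample (log2 change -0.38, SE 0.07; limma adjusted p = 0.000599). Groups without overlap in this direction made up 14.3% of all tested genes. Cd59a, which blocks the membrane attack complex, rose from 0.73 ± 0.71 to 2.45 ± 1.96 FPKM (log2 change 0.92, SE 0.35; limma adjusted p = 0.0345), but this call was lost with a pseudocount of 5 (0.35, adjusted p = 0.0572), after median subtraction (0.59, adjusted p = 0.159), after quantile normalization (0.57, adjusted p = 0.168) and without adjacent sample 1, 2 or 4 or tumour 2 or 5 (adjusted p from 0.0631 to 0.0785). Cd46 did not exceed 1.07 FPKM.

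Both receptor genes rose. C3ar1, the receptor of C3a (chromosome 6, 122847140 to 122856157, minus strand), was at 1.66, 0.67, 1.61, 0.59 and 1.37 FPKM in adjacent samples 1 to 5 and at 4.19, 5.43, 3.29, 3.08 and 3.89 FPKM in tumours. Tumours averaged 3.98 ± 0.93 FPKM against 1.18 ± 0.51 in adjacent samples (mean ± SD, n = 5 each), and the gene rose (log2 change 1.21 ± 0.19, SE; limma, adjusted p = 0.000175). C5ar1, the receptor of C5a (chromosome 7, 16246743 to 16259540, minus strand), was at 1.52, 0.74, 1.46, 0.66 and 1.93 FPKM in adjacent samples and at 5.31, 5.54, 5.46, 7.15 and 5.78 FPKM in tumours. It averaged 5.85 ± 0.75 FPKM against 1.26 ± 0.54 and rose (log2 change 1.63 ± 0.17, SE; limma, adjusted p = 2.31e-05), with the highest ratio of means among the members, 4.63-fold. For both genes every tumour was above every adjacent sample, and adjacent samples 2 and 4 were the lowest libraries. The sizes depend on the pseudocount: with 5 in place of 1 the log2 changes were 0.54 for C3ar1 and 0.79 for C5ar1, and with quantile normalization C3ar1 was at 0.73.

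The windows before the starts of C3ar1 (chr6:122856158-122856407, minus strand) and C5ar1 (chr7:16259339-16259588, minus strand) are shown since both receptors rose without overlap; the C5ar1 window reaches into the gene's span, from which another transcript starts further upstream. The C3ar1 window holds an AP-1 match 22 to 16 bases before the start, a palindromic motif in 6.75% of all such windows, and a GC box. The C5ar1 window holds 2 ETS matches, at 190 to 184 and 72 to 66 bases before the start, a motif in 7.69% of windows; ETS factors include the myeloid factor PU.1.
C3ar1: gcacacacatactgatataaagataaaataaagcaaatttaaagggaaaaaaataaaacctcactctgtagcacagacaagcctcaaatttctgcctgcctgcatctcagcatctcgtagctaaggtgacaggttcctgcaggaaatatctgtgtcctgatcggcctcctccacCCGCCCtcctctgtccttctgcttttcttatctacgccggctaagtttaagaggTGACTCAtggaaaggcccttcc
C5ar1: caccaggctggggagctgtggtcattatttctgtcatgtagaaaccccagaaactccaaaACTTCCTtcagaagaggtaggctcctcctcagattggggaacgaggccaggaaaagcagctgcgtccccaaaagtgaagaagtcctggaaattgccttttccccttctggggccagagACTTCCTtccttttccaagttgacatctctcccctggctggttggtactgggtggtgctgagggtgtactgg

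Markers of the cells known to carry these receptors rose for the most part, as did all 8 fibroblast markers. The mean of the macrophage and monocyte list was 1.57 to 2.37 on the log2(FPKM + 1) scale in adjacent samples and 2.87 to 3.69 in tumours, with 7 of 8 markers up, Mertk down and Cd163 at 0.22 FPKM or less. The neutrophil list ran from 1.76 to 3.77 and from 3.22 to 4.61, with 6 of 8 up and Ly6g down. Summed, the macrophage and monocyte markers came to 21.8 to 43.8 FPKM in adjacent samples and 70.4 to 123 FPKM in tumours. The neutrophil markers summed to 103 to 354 and 174 to 473 FPKM. Of these sums Ly6g, the neutrophil marker that fell, made up 91.6 to 262 FPKM in adjacent samples and 11.0 to 60.1 FPKM in tumours. Set against the macrophage and monocyte list in the same library, C3ar1 was at -1.01 ± 0.10 in adjacent samples and -0.83 ± 0.23 in tumours, a difference of 0.18 (exact permutation test, adjusted p = 0.175), which turned to -0.16 without Mertk (adjusted p = 0.213). It was 0.46 and passed with a pseudocount of 0.1 (adjusted p = 0.0327) and turned to -0.071 with a pseudocount of 5 (adjusted p = 0.446). C5ar1 against that list was at -0.96 ± 0.13 and -0.35 ± 0.36, a difference of 0.60 that passed (exact permutation test, adjusted p = 0.0374). It did not pass without Mertk (0.26, adjusted p = 0.213) or with a pseudocount of 5 (0.19, adjusted p = 0.218). Nor did it pass in 7 of 10 fits leaving out a library: adjacent 1, 2 or 3 or tumour 1, 3, 4 or 5 (adjusted p from 0.0655 to 0.0748). Over the 10 fits the difference stayed at 0.53 to 0.76. With a library left out, the smallest raw p that the design allows is larger. Against the neutrophil list the C5ar1 difference was 0.21 (exact permutation test, adjusted p = 0.579) and -0.37 without Ly6g (adjusted p = 0.421). Mertk and Ly6g were left out after their values were seen. The part of cell numbers in the receptor levels was not tested.

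**Figure D2:**
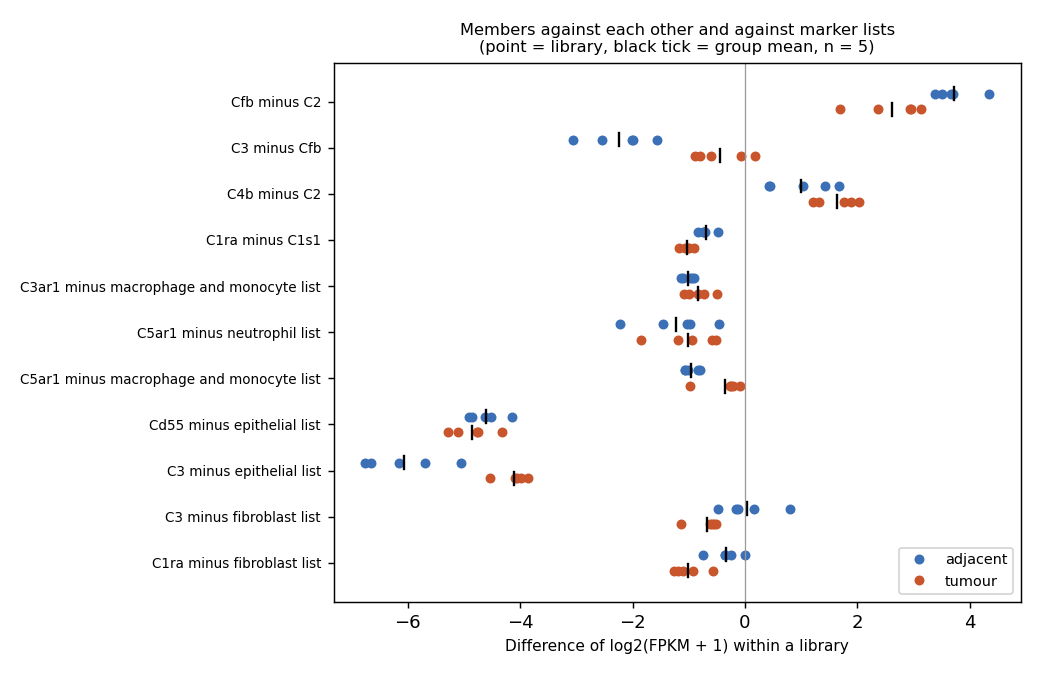
Differences of log2(FPKM + 1) within a library (x axis) between members, or between a member and the mean of a marker list (y axis); points are libraries, blue adjacent and orange tumour, and ticks are group means (n = 5). C3 minus Cfb, Cfb minus C2 and C3 minus the epithelial list separate the groups, while C5ar1 minus the neutrophil list overlaps.

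C3 was also set against the epithelial and fibroblast lists. Relative to epithelial markers it was at -6.07 ± 0.71 in adjacent samples and -4.10 ± 0.26 in tumours, a difference of 1.96 with no overlap (exact permutation test, adjusted p = 0.0175). Relative to fibroblast markers the sign was the opposite, 0.04 ± 0.48 and -0.68 ± 0.25, a difference of -0.72 (exact permutation test, adjusted p = 0.0175). C1ra likewise fell behind the fibroblast list, from -0.34 ± 0.27 to -1.01 ± 0.28 (difference -0.67, exact permutation test, adjusted p = 0.0291). This call was lost in 7 of 10 fits leaving out a library, namely adjacent 1, 2 or 3 or tumour 1, 3, 4 or 5. Each of these had an adjusted p of 0.0582 by the same test. Over the 10 fits the difference stayed at -0.59 to -0.78. With a library left out, the smallest raw p that the design allows is larger. Summed fibroblast markers came to 80.7 to 202 FPKM in adjacent samples and 607 to 1010 FPKM in tumours, and summed epithelial markers to 6479 to 8031 and 3635 to 5741 FPKM; the part of these cells in the member levels was not tested. Fibroblast markers rose by a median of 2.07 and macrophage and monocyte markers by 1.36, against 1.28 for the tested members. Of 5 hepatocyte markers, neither of the 2 that passed the filter was called, Apoa1 and Serpina1a were at 0.14 FPKM or less, and Alb reached 28.7 FPKM in tumour 2.

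The libraries of a group differed together in several members. Among tumours, tumour 2 was highest in 6 of the 8 tested members and tumour 4 in the other 2, Cfb and C5ar1, while tumour 5 was lowest in 4 and tumour 1 in 3. Among adjacent samples, sample 4 was lowest in 4 and highest in none. Tumour 2 also had the highest mean of the macrophage and monocyte list, 3.69, of the fibroblast list, 6.12, and of the T cell list, 2.67 against 1.33 to 1.81 in the other tumours. It was also highest among tumours for the epithelial list, 9.46 against 8.88 to 9.17, the endothelial list, 3.30, and the B cell list, 1.92. For the neutrophil list it was the lowest tumour, 3.22. For colonocyte and goblet markers tumour 4 was highest at 5.99, tumour 2 was at 5.68 and the others were at 3.62 to 3.79. The part of tumour 2 in the member levels was not tested, but each of the 5 rises and the fall of Cd55 also passed without it.

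**Figure D3:**
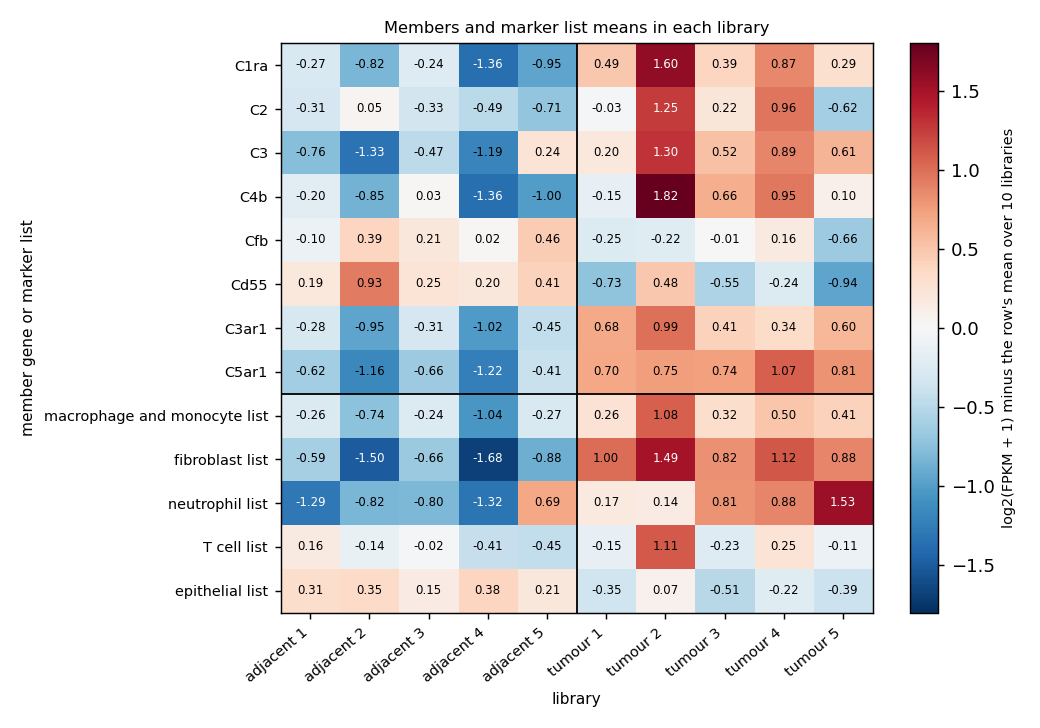
Members and marker list means (rows) in the 10 libraries (columns) as log2(FPKM + 1) minus the row's mean, with the value printed in each cell and the colour scale from blue (lower) to red (higher). Among tumours, tumour 2 stands highest for C1ra, C2, C3, C4b, Cd55 and C3ar1 as well as for the macrophage and monocyte, fibroblast, T cell and epithelial lists, and adjacent samples 2 and 4 stand lowest for C3, C3ar1 and C5ar1.

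After the group mean was subtracted, members varied with different genes over the 10 libraries. C1ra followed Pla2r1, Adcy7 and C1s1 most closely (Pearson r = 0.99, 0.98 and 0.98), and C4b followed Ms4a4d, Asb2 and Rcn1 (0.98, 0.98 and 0.98). C1ra and C4b followed each other at r = 0.93. C2 followed Casp1, Ly6a and Batf2 (0.98, 0.97 and 0.97). Casp1 encodes an inflammatory caspase, and Ly6a and Batf2 are known as interferon-responsive. Between groups, Casp1 and Batf2 fell (log2 change -1.38 and -1.39, limma, adjusted p = 0.000649 and 0.0153). Ly6a (-0.53) was not called, nor was C2, whose difference was positive (0.72). C2 followed its neighbour Cfb at 0.50 and Cd55 at 0.87. C3 followed Qpct, Jdp2 and Igsf6 (0.97, 0.95 and 0.93). C3ar1 followed Lyz2, Trem2 and Spon1 (0.96, 0.95 and 0.95), the first a lysozyme and the next a receptor of macrophages. With the means of the fibroblast, macrophage and monocyte, and neutrophil lists, C3ar1 stood at r = 0.91, 0.86 and -0.02. For C5ar1 these were 0.74, 0.65 and 0.55, so both receptors followed the fibroblast list most closely of the 3. C5ar1 followed Timp1, Igfbp4 and Loxl2 (0.96, 0.96 and 0.95), and Cd55 followed Pcgf5, Scamp2 and Mpp5 (0.97, 0.97 and 0.97). Cfb followed Pip4k2c, Il15 and Sigirr (0.93, 0.92 and 0.91). These correlations are descriptions over 5 libraries per group. The 3 genes named per member were picked as the highest of 13016 genes, and libraries that differ in cell makeup move many genes together.

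Of 51 other complement symbols, 49 were in the table and 20 passed the filter: 15 rose, 2 fell and 3 did not pass, with a median log2 change of 1.47. In 14 of the 20 every tumour was above every adjacent sample. Over all tested genes 57.2% rose, 19.3% fell and 46.5% had every tumour above every adjacent sample. All 3 C1q genes, which encode the recognition part of C1 and are known from macrophages, rose, C1qa from 28.6 ± 12.6 to 92.3 ± 25.4 FPKM (n = 5 per group; log2 change 1.75, SE 0.31; limma adjusted p = 0.000514). Of 6 tested initiation genes 5 rose, and the ficolin gene Fcna fell from 4.90 ± 1.02 to 2.45 ± 0.98 FPKM (log2 change -0.81, SE 0.21; limma adjusted p = 0.00479). The lectin-route genes Mbl1 and Mbl2 were listed at 0 in every library and Masp2 at 0.10 FPKM or less. Masp1, a protease gene of that route also below the filter, was at 0.03 to 0.27 FPKM in adjacent samples and 0.40 to 1.71 FPKM in tumours.

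Of 5 tested fluid-phase regulators 3 rose and none fell, against 57.2% and 19.3% of all tested genes. With medians subtracted 3 rose and 1 fell. Cfi, factor I, which degrades C3b and C4b, had the largest log2(FPKM + 1) change among the tested complement genes reported, from 3.06 ± 1.88 to 21.1 ± 8.17 FPKM (n = 5 per group; log2 change 2.48, SE 0.32; limma adjusted p = 7.00e-05). Serping1, the C1 inhibitor, rose from 20.5 ± 7.97 to 70.4 ± 24.0 FPKM. Cpn2, a carboxypeptidase subunit below the filter, was at 0.48 to 1.51 FPKM in adjacent samples and 0.20 FPKM or less in tumours. Clu, clusterin, which binds terminal complexes, rose from 58.9 ± 18.5 to 188 ± 77.9 FPKM. C4bp, the C4b-binding protein gene, did not pass, at 9.80 ± 1.76 and 8.78 ± 2.34 FPKM, but with medians subtracted it was called lower (-0.49, adjusted p = 0.0202). Cpn1, a carboxypeptidase subunit that inactivates anaphylatoxins, did not pass (log2 difference 0.66, limma adjusted p = 0.0586), though it passed without adjacent sample 1 or tumour 1 or 2 (adjusted p from 0.0222 to 0.0425).

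Transcripts of the terminal route were low or absent. Of 7 genes only C8g passed the filter, at 1.26 ± 0.39 and 1.12 ± 0.19 FPKM, and it was not called (log2 difference -0.08; with medians subtracted -0.41, adjusted p = 0.0143). Hc, which encodes C5, did not exceed 0.09 FPKM, C7 and C9 did not exceed 0.10 FPKM, and C8a was listed at 0 throughout. C6, below the filter, was at 0.09 to 0.44 FPKM in adjacent samples. It was at 2.42 FPKM in tumour 2 and at 0.45 to 0.70 FPKM in the other tumours. Of 5 tested receptor genes all rose, against 57.2% of all tested genes. Among them were the integrin chains of complement receptors 3 and 4, Itgam from 1.99 ± 1.05 to 9.62 ± 2.06 FPKM and Itgax from 3.47 ± 1.19 to 9.84 ± 2.55 FPKM (n = 5 per group). Their shared chain Itgb2 rose too, as did Cd93 and C1qbp. C1qbp changed least of the 5, by 0.68 on the log2 scale, and by 0.35 with medians subtracted. The second C5a receptor gene, C5ar2, was below the filter, at 0.24 to 0.42 FPKM in adjacent samples and 0.59 to 1.15 FPKM in tumours. Cr2, complement receptor 2 of B cells, was at 0.10 to 2.30 FPKM in adjacent samples and 0.04 to 0.15 FPKM in tumours.

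**Figure D4:**
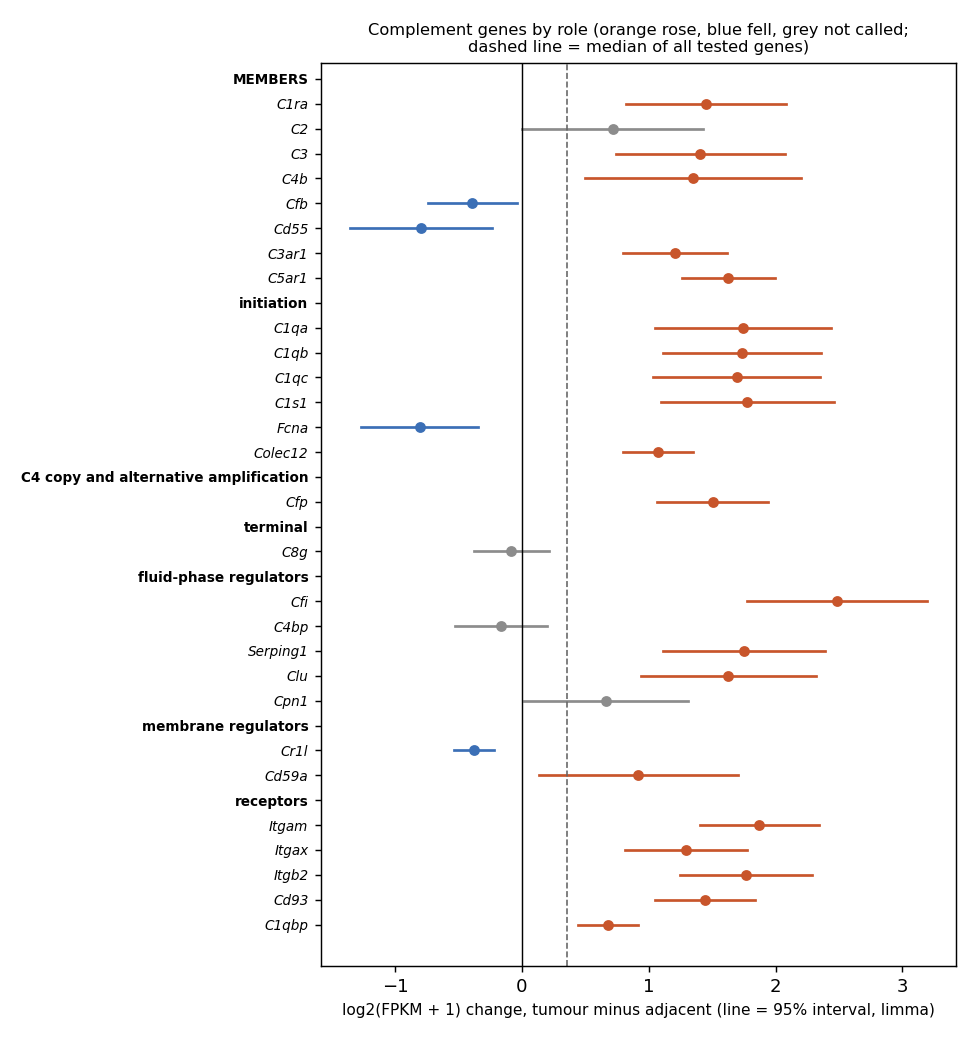
log2(FPKM + 1) change, tumour minus adjacent (x axis), of the 8 tested members and 20 other tested complement genes by role (y axis); lines are 95% intervals from limma, orange rose, blue fell, grey not called, and the dashed line marks the median of all tested genes at 0.35. Cfb, Cd55, Fcna and Cr1l lie below 0 with their whole interval, and Cfi lies farthest to the right.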

How the data were processed

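Per the labels' protocols, oligo-dT selected RNA was made into TruSeq RNA v2 libraries and sequenced on an Illumina instrument. Tools listed in the submitters' processing notes, without their roles, include Salmon 0.8.2, RSEM 1.2.15, Cufflinks 2.2.1 and TopHat2 2.1.0, and the build is mm10. The authors deposited FPKM per gene symbol to 2 decimals. The treatment of multi-mapped reads is not stated there. 1 line of text was left out.

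Groups follow the sample type label. limma 3.58.1 (R 4.3.3) was fitted to log2(FPKM + 1) of all 10 libraries with group as the only term, intensity trend and robust empirical Bayes, two-sided, over genes averaging 1 FPKM or more, and was tested on simulated data. The pseudocount understates changes of low genes. Differences within libraries were tested with exact two-sided permutation tests (scipy 1.17.1), adjusted by Benjamini-Hochberg over 11; a difference of Cfd to the adipocyte list was left out, since Cfd was at or near 0. Depth was estimated from low values of genes with 1 annotated transcript of 300 to 900 bases; on average 70.4% of the 142 to 176 values per library lay within 0.2 of a whole fragment. Positions and promoter windows are from RefSeq (GRCm38.p6, the mm10 assembly); all 9 members matched a gene and 6 a window. Named are all members, genes of the fixed lists, and per member the 3 genes most correlated after subtracting group means, without clone-named genes. 1 gene of the fixed complement list is not reported here and stays out of its counts. Members and lists were chosen with earlier results of these data known. No libraries were duplicates (17741 or more genes differ in each pair).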

Additional observations from a re-analysis of the deposited data

Results flagged for a closer look

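For each of the 8 tested members and the 20 other tested complement genes, the highest and lowest of the 5 samples of a group were compared with the rest of the group. In 6 of the 56 sets of 5 a library stood apart by Dixon's criterion (gap over range above 0.71), which chance meets in about 1 of 20 sets. Cd55 in adjacent sample 2 was at 47.0 FPKM, with the next at 32.5 FPKM. C5ar1 in tumour 4 was at 7.15 FPKM, with the next at 5.78 FPKM. Tumour 2 stood apart in 3 sets: C1qb at 124 FPKM (next 85.1), C1qc at 112 FPKM (next 72.5) and Itgb2 at 24.9 FPKM (next 17.7). Itgam in tumour 5 was at 13.2 FPKM, with the next at 9.38 FPKM.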

How the results depend on the processing

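The 5 rises and the fall of Cd55 kept their direction and their call under each alternative in which the gene was tested. The fall of Cfb was lost with no filter (1 member fell), and the members that rose numbered 3 with a minimum mean of 5 FPKM, since C3ar1 and C5ar1 were then not tested. Leaving out each library gave 5 to 6 members up and 1 to 2 down, 14 to 16 other complement genes up, 28 to 29 markers up and 15 to 17 down, 7063 to 7625 genes up and 2324 to 2605 down, and 5 to 7 within-library differences past the threshold. All genes numbered 4486 up and 4329 down with medians subtracted, and 4759 up and 3934 down with quantile normalization. Other complement genes that rose numbered 23 with no filter, and those that fell numbered 4 with no filter, with medians subtracted and with quantile normalization, and 1 with a minimum mean of 5 FPKM, where 18 markers rose. Fewer genes are tested at the higher minimum; the cause of the other moves was not tested.

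Of 663 refits of 39 single values under the alternatives, 614 kept direction and call, 32 lost the call, 11 gained it and 6 reversed. C3ar1 minus the macrophage and monocyte list turned from 0.18 to -0.071 with a pseudocount of 5 and to -0.16 without Mertk. C5ar1 minus the neutrophil list turned from 0.21 to -0.053 with a pseudocount of 5, to -0.027 with quantile normalization, to -0.037 without adjacent replicate 5 and to -0.37 without Ly6g. None of these passed the threshold, the settings without Mertk and without Ly6g were chosen after seeing the data, and the cause was not tested. With the title number as a replicate block 1 member fell (Cfb lost, adjusted p = 0.0913) and 6 rose (C2 gained, 0.72, adjusted p = 0.0234). Same-numbered libraries correlated after subtracting group means at 0.02 to 0.42, with 3 of 5 pairs over 0.1 and 2 of 5 adjacent libraries closest to their own number, so the numbers were not taken to pair the samples. The pseudocount or scaling moved called values by over 1.5 times without ending the call for Fcna (-0.41 with a pseudocount of 5, -1.27 with quantile normalization) and Cr1l (-0.71 with medians subtracted), among others. C5ar1 minus the macrophage and monocyte list kept its call with a pseudocount of 0.1 (0.93). It lost the call with a pseudocount of 5 (0.19, exact permutation test, adjusted p = 0.218). Depth limits Cfd, whose values stand for about 1 fragment.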
